A study of Mus musculus with 9 samples.

Results

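The wild-type baseline of long-term haematopoietic stem cells (LT-HSCs) is described here from 3 of the 9 libraries of the series. They are the libraries labelled wild-type (WT), and no gene-deleted library was used. Each came from bone marrow of a separate C57BL/6 mouse aged 6 to 8 weeks, with 500 to 800 sorted cells per mouse. The sort took lineage-negative cells that carried Sca-1, c-Kit and CD150 and lacked CD135 and CD48. Polyadenylated RNA was amplified as cDNA, and the 22322 genes of the deposited table were ranked by their mean FPKM (fragments per kilobase of transcript, scaled to the total of the library) over the 3 libraries. The expected counts summed to 14368247, 15252788 and 17904629 in libraries 1, 2 and 3. With no second group there is nothing to test, so every value is a description, with its standard deviation (SD) or its value in each of the 3 mice.

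LT-HSCs sit at the top of the blood hierarchy: they renew themselves, divide rarely and give rise to all blood lineages. Sca-1 and c-Kit, the products of Ly6a and Kit, and CD150, the product of Slamf1, mark them, while CD48 and CD135 (the product of Flt3) appear on multipotent progenitors that have left the stem cell state. A network of transcription factors that includes HLF, MECOM, GATA2, MEIS1 and LMO2 maintains the stem cell programme, and low levels of lineage genes, known as priming, are a familiar feature of these cells.

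All 6 genes that mark the labelled cell type were present in each library, at levels spread over a wide range. Ly6a stood at 271, 338 and 329 FPKM, and Kit, the receptor of stem cell factor, at 98.1, 110 and 106 FPKM. Hlf, which encodes a PAR-domain transcription factor of stem cells, stood at 57.6, 75.0 and 69.2 FPKM. Mecom, which encodes the EVI1 zinc finger factor, had 47.3, 44.3 and 45.2 FPKM. Procr, which encodes the endothelial protein C receptor, was lower, at 19.2, 28.1 and 19.5 FPKM, and Slamf1 lowest, at 6.87, 7.4 and 5.23 FPKM. Their order was the same in the 3 libraries, and their ranks among the 22322 genes ran from 405 for Ly6a to 6698 for Slamf1. The median of the 6 was 56.4 FPKM.

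Genes of the markers selected against were mostly at or near 0, with Cd48 as the main exception. Of all 22322 genes, 47.7% reached a mean of 1 FPKM and 4427 were listed at 0. Such counts, here and below, are to be read against these. Of the 15 sort exclusion genes listed, 4 (26.7%) reached a mean of 1 FPKM and 6 were listed at 0 in all 3 libraries. Among them Cd3e, Ly6g and Il7r, which mark T cells, neutrophils and lymphoid progenitors, had no counts at all. A count of 0 allows up to 3 counts in a library, which for a transcript of 1 kb is 0.209, 0.197 and 0.168 FPKM in libraries 1, 2 and 3, by counting error alone. Cd48 stood at 17.8, 20.1 and 8.76 FPKM, above Slamf1 in each library. The ratio of Cd48 to Slamf1 lay between 1.67 and 2.72. Library 3 had the lowest level of both genes. Flt3 stood at 4.17, 6.08 and 4.75 FPKM, and Kit exceeded it by 18.1 to 23.5 times. Klrb1c, which encodes an NK cell receptor, had 2.98, 3.57 and 2.67 FPKM. In bulk samples such as these, fewer cells of a type and less RNA per cell cannot be told apart.

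**Figure D1:**
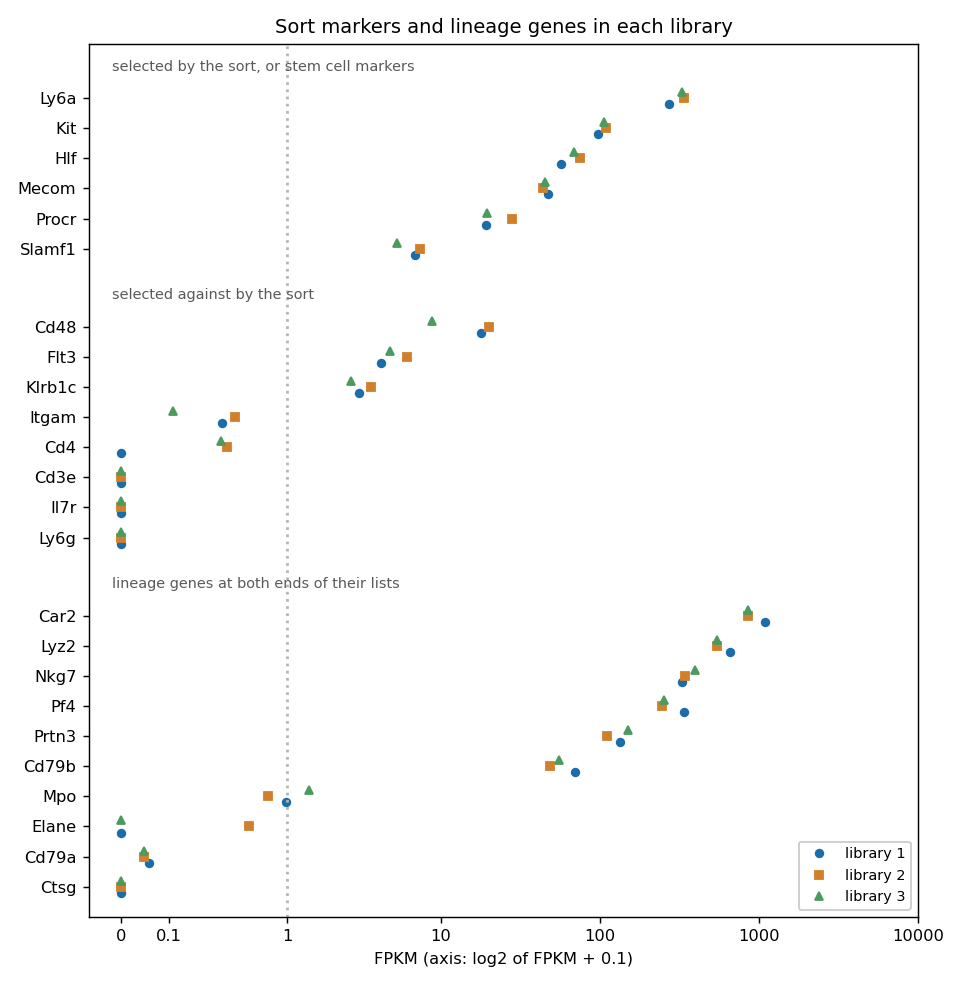
FPKM of sort markers and lineage genes in each of the 3 wild-type libraries, plotted as log2 of FPKM + 0.1. Each symbol is a library and the dotted line marks 1 FPKM. Cd48 lies to the right of Slamf1 in every library, and Cd3e, Il7r and Ly6g lie at 0.

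Promoter sequences were set beside the levels, because the level of a gene and the base composition around its start went together across the table. Of the table's genes, 16832 (75.4%) had a promoter of 250 bases before and 50 after the start in RefSeq (GRCm38.p6). The ratio of observed to expected CG dinucleotides in this window had a median of 0.20 among genes listed at 0 in all libraries. It was 0.33 above 0 and under 1 FPKM, 0.76 from 1 to 10, 0.80 from 10 to 100, 0.81 from 100 to 1000 and 0.87 at 1000 FPKM and above. The step thus lay around 1 FPKM, and levels above it were less clearly graded by CG content. The motif TATAAA at 45 to 16 bases before the start, searched on the strand of the gene, was in 8.17% of the promoters of genes at 0. The share was 3.40% from above 0 to 1 FPKM, 1.07% from 1 to 10 and 0.90% from 10 to 100. It was 1.48% (11 of 743) from 100 to 1000 and 3.16% (3 of 95) at 1000 FPKM and above, against 3.02% of all matched promoters.

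The markers, all above 1 FPKM, differed in this ratio. The promoters of Hlf and Slamf1 and, for a gene listed at 0, that of Il7r are shown over the 100 bases before the start, with CG pairs in capitals. Hlf has a ratio of 0.89, while Slamf1, a marker present at a low level, has a ratio of 0.22. Il7r, a receptor gene of lymphoid progenitors, has 0.06. The windows are chr11:90390918-90391017 on the minus strand for Hlf, chr1:171767032-171767131 on the plus strand for Slamf1 and chr15:9529877-9529976 on the minus strand for Il7r.
Hlf: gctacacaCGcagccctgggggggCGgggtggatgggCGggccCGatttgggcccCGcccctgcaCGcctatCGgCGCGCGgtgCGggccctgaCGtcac
Slamf1: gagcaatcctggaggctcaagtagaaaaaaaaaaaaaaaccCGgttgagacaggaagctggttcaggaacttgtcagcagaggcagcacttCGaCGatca
Il7r: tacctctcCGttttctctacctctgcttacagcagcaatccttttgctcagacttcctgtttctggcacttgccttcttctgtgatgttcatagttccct
Mecom (1.02) and Kit (0.62) also exceeded the ratio of 0.60 that was set as a mark, whereas Procr (0.53) did not. Ly6a had no promoter entry. Of the LT-HSC surface and reporter markers with a promoter, 7 of 19 (36.8%) reached that ratio, with a median of 0.29, although 24 of the 27 on the list were at 1 FPKM or more. Among all matched promoters 49.7% reached it. Epx, which encodes eosinophil peroxidase and was listed at 0, is shown as a promoter with the TATAAA motif, in capitals, from chr11:87875537-87875636 on the minus strand.
Epx: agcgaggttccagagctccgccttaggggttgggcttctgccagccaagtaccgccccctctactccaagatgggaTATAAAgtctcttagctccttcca
These 4 genes were chosen for display with their levels known.

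A second sequence feature was carried by the most abundant class of nuclear messages, those of ribosomal proteins. The start of such genes is known for a run of pyrimidines that begins with C, through which the translation of these messages is coupled to growth signals. A C followed by 4 bases that are each C or T, beginning within 4 bases of the annotated start, was found in 28 of 64 ribosomal protein promoters (43.8%). It was in 13.8% of all matched promoters and in 16.7% of the 54 other genes at 1000 FPKM or above. The run was also in 6 of 19 promoters of LT-HSC surface and reporter markers (31.6%) and in those of Hlf and Slamf1. The promoters of Procr, Mecom and Kit lacked it. Among stem cell transcription factors its share was 9.09%, among lymphoid genes 7.69% and among myeloid genes 14.8%. The 4 ribosomal protein genes with the highest FPKM among those with the run, leaving out genes on 1 chromosome that is not printed, are given. The bases shown run from 30 before to 10 after the start, with the run in capitals from its first C within that reach. In Rpl35 further pyrimidines lie directly before the capitals, and the capitals reach the end of the printed bases, so the whole run is longer than marked. They lie on the minus strand at chr17:33955656-33955695 (Rps18), chr3:90213639-90213678 (Rps27), chr4:86857358-86857397 (Rps6) and chr2:39005122-39005161 (Rpl35).
Rps18: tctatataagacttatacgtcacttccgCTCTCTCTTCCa
Rps27: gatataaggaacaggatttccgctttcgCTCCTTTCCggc
Rps6: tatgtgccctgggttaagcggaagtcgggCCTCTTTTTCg
Rpl35: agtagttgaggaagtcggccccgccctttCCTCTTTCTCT
Rps18 stood at 4280, 4109 and 4707 FPKM and Rps27 at 3516, 3621 and 3901 FPKM. Rps6 had 2527, 2546 and 2827 FPKM and Rpl35 had 2679, 2356 and 2446 FPKM. The first 3 of these genes were highest in library 3 and Rpl35 in library 1.

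The transcriptome was broad in genes and concentrated in amount. Between 14498 and 16010 genes were above 0 in a library, and 9764 reached 1 FPKM in all 3, which is 43.7% of the table. At 10 FPKM this number was 4720, at 100 it was 942 and at 1000 it was 122. Ranked by mean FPKM, 156 genes held 50% of the summed FPKM and 2455 held 90%. In each library the 100 genes with the highest FPKM accounted for 42.7 ± 0.165% (SD, n = 3) of the FPKM. The 100 genes with the most counts, a different set, accounted for 29.5 ± 0.370% of the counts. Across all genes, Pearson r of log2(FPKM + 1) between the libraries lay between 0.984 and 0.985. Genes are not independent replicates, so r describes the libraries only.

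**Figure D2:**
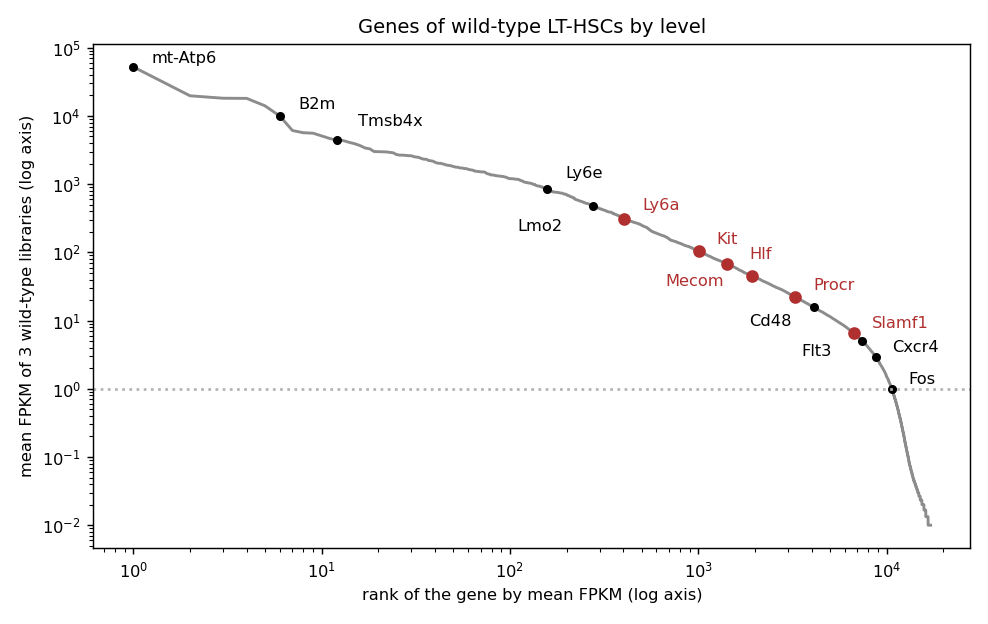
Mean FPKM of the 3 wild-type libraries against the rank of the gene, both on log axes, with the 6 markers in red and other genes in black. The curve falls steeply below 1 FPKM (dotted line), and the markers lie between rank 405 (Ly6a) and rank 6698 (Slamf1).

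Among the 100 genes with the highest mean FPKM, 49 encoded cytoplasmic ribosomal proteins, 11 lay on the mitochondrial genome and 8 were nuclear genes of the respiratory chain or ATP synthase. The other 32 belonged to none of these groups. The mitochondrial genome, which encodes 13 respiratory proteins, held 12.9 ± 0.258% (SD, n = 3) of the counts and 18.6 ± 0.402% of the FPKM. The 85 ribosomal protein genes held 8.75 ± 0.464% of the counts and 16 ± 0.848% of the FPKM. The 86 nuclear genes of the respiratory chain and ATP synthase held 3.08 ± 0.0900% of the counts and 6.05 ± 0.0836% of the FPKM. Shares of FPKM exceeded shares of counts in all 3 groups.

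mt-Atp6, a subunit gene of ATP synthase, ranked highest with 56139, 52259 and 48794 FPKM. The cytochrome oxidase genes mt-Co1 (19674, 20164 and 19470 FPKM), mt-Co2 (18051, 17762 and 18755 FPKM) and mt-Co3 (17881, 18190 and 18243 FPKM) followed. mt-Cytb, the subunit of complex III, had 14645, 13941 and 13710 FPKM. At the other end mt-Nd3, a complex I subunit, had 639, 632 and 678 FPKM, so that mt-Atp6 exceeded it by 71.9 to 87.9 times. Transcripts of the mitochondrial genome are cut from long precursors, and levels within it nonetheless differed widely between genes. The complex I genes mt-Nd1 (mean 5675 FPKM), mt-Nd4 (3915), mt-Nd2 (2984), mt-Nd6 (1950), mt-Nd5 (1885) and mt-Nd4l (839) all lay below the 3 cytochrome oxidase genes and mt-Cytb. mt-Atp8 (mean 6117 FPKM) overlaps mt-Atp6, and the strand of the counting is not given, so the values of overlapping genes and of mt-Nd6, which is read from the other strand, are uncertain.

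B2m, the light chain of MHC class I, was the nuclear gene with the highest mean, at 10145, 10407 and 9332 FPKM. Ppia, which encodes cyclophilin A, had 5807, 5433 and 5527 FPKM. Rps14 (mean 4688 FPKM) and Rps19 (3393) were further ribosomal protein genes near the top. Tmsb4x, which encodes the actin-binding peptide thymosin beta 4, had 4620, 4313 and 4314 FPKM. Ifitm1, an interferon-inducible membrane protein gene that restricts viruses, stood at 4038, 4068 and 4211 FPKM. The iron storage gene Ftl1 (mean 3297 FPKM), the variant histone gene H2az1 (3007), the elongation factor gene Eef1a1 (2999), the ubiquitin gene Ubb (2973), the calmodulin gene Calm2 (2930), the transcription coactivator gene Sub1 (2882) and the ribosomal stalk gene Rplp1 (2717) were also in the top 25. Among the 25, the largest coefficient of variation (SD as a percentage of the mean) was 18.2%, for mt-Nd2. The pseudogene Rpl10-ps3 (mean 1687 FPKM) shares nearly all its sequence with Rpl10 and may hold its reads. The predicted gene Gm10800 (mean 2041 FPKM) was the other such entry among the 100.

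**Figure D3:**
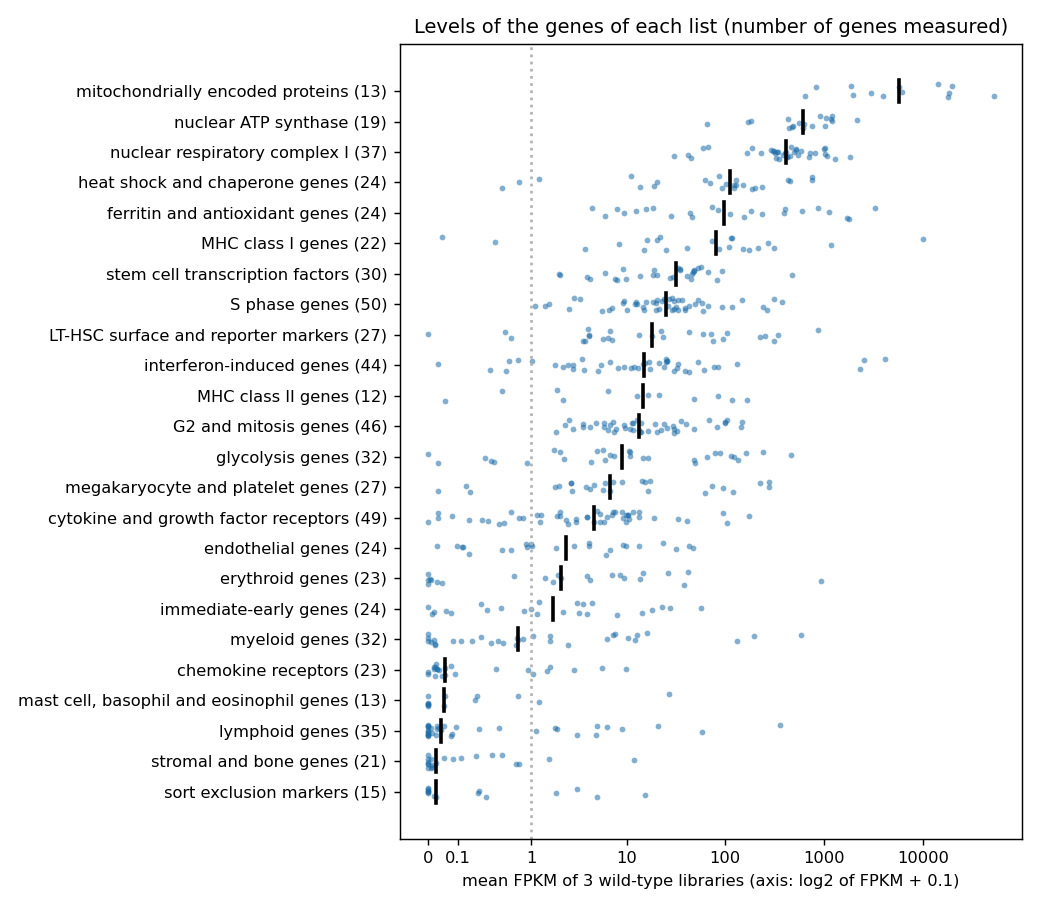
Mean FPKM of the measured genes of 24 lists, plotted as log2 of FPKM + 0.1, with each point a gene, the black bar the median of the list and the dotted line 1 FPKM. The medians run from 5675 FPKM for the mitochondrially encoded proteins to 0.02 FPKM for the stromal genes and the sort exclusion markers.

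All 30 listed transcription factors and regulators of stem cells reached 1 FPKM, where 47.7% of all genes did, and their median was 31.6 FPKM against 0.673 over all genes. Lmo2, the LIM-domain bridge of the SCL complex, led with 478, 464 and 490 FPKM. It exceeded Tal1, its partner in that complex, by 13.7-fold in the means. Myb stood at 83.5, 107 and 88.0 FPKM and Meis1, a HOX cofactor gene, at 80.5, 83.7 and 83.1 FPKM. Myc (43.1, 69.9 and 58.7 FPKM) and Mycn (50.2, 67.1 and 43.8 FPKM), which encode the growth regulators c-MYC and N-MYC, had similar levels, with their order changing between libraries. Mycl was at a mean of 0.01 FPKM. The lowest of the list were Prdm16 (mean 2.01 FPKM), Hoxb4 (2.05), Egr1 (3.93) and Gfi1 (4.17).

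Hox genes, which encode the homeodomain factors of body axis and blood, reached 1 FPKM in the A and B clusters and not in the C and D clusters. Hoxa9 stood at 36.5, 35.9 and 31.6 FPKM, Hoxa7 at 16.6, 17.4 and 19.5 and Hoxa5 at 8.68, 14.1 and 7.08 FPKM. In all, 6 of 11 Hoxa genes (54.5%) and 4 of 10 Hoxb genes (40%) reached a mean of 1 FPKM, on either side of the 47.7% of all genes. The highest Hoxb genes were Hoxb2 (mean 4.58 FPKM), Hoxb5 (3.55), a reporter gene of LT-HSCs, and Hoxb3 (3.30). None of the 9 Hoxc and none of the 9 Hoxd genes reached 1 FPKM, and the highest of either cluster was Hoxc6 at a mean of 0.07 FPKM. Among the GATA factors Gata2, the stem cell member, had 40.5, 46.0 and 54.2 FPKM. It exceeded Gata3 by 6.67 to 7.96 times and Gata1, the erythroid and megakaryocytic member, by 8.86 to 16.2 times, while Gata4, Gata5 and Gata6 were at or under 0.01 FPKM.

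Of 27 surface and reporter markers of LT-HSCs, 24 reached 1 FPKM. Ly6e, a relative of Ly6a, had 804, 876 and 911 FPKM. Pdzk1ip1, a reporter gene of LT-HSCs, stood at 350, 356 and 310 FPKM, and the tetraspanin genes Cd81 and Cd9 at means of 255 and 223 FPKM. Other genes used to trace LT-HSCs were far lower: Fgd5 had 2.17, 4.42 and 4.73 FPKM. Cdh5 (mean 0.59 FPKM) and Neo1 (0.50) were under 1 FPKM, and Gprc5c was listed at 0 in all 3 libraries.

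Receptors for cytokines and growth factors reached 1 FPKM in 37 of 49 cases (75.5%), against 47.7% of all genes. Their median was 4.67 FPKM, against 0.673 FPKM over all genes. Il2rg, the common gamma chain, led with 194, 170 and 154 FPKM, while its partner Il7r had no counts. Further members were the interferon receptor genes Ifngr1 (mean 41.6 FPKM) and Ifnar2 (33.6) and the TGF-beta co-receptor gene Tgfbr3 (19). The lowest measured members besides Il7r were Osmr, Acvrl1 and Notch4, each at or under 0.08 FPKM. Of 23 chemokine receptor genes 6 (26.1%) reached 1 FPKM, a lower share than that of all genes. Cxcr2, a receptor of CXCL2-type chemokines, had 11.1, 8.75 and 9.59 FPKM, and Ccrl2 had 7.87, 3.78 and 5.01 FPKM. Cxcr4, the receptor that holds stem cells in the marrow, stood at 1.93, 3.74 and 3.00 FPKM. Cxcr3, deleted elsewhere in this series, had 8 counts in library 3 and 0 in the others. Among 26 integrin genes 12 (46.2%) reached 1 FPKM, near the 47.7% of all genes. The integrin genes were led by Itgb1 (37.6, 38.0 and 52.1 FPKM), Itgav (mean 29.2 FPKM), Itga4 (23.4) and Itga6 (16.9).

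Some lineage genes were abundant while defining genes of the same lineage were near 0. Of the 27 megakaryocyte and platelet genes, 24 (88.9%) reached 1 FPKM, against 47.7% of all genes, with a median of 6.80 FPKM. Pf4, which encodes platelet factor 4, stood at 340, 247 and 254 FPKM and Gng11, a G protein gamma chain gene of platelets, at 295, 265 and 270 FPKM. Nfe2, a factor of platelet formation, had a mean of 120 FPKM. Tubb1 and Gp6, genes of mature platelets, were at means of 0.14 and 0.03 FPKM. Summed over the list, the libraries had 1333, 1207 and 1223 FPKM.

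Erythroid genes reached 1 FPKM in 15 of 23 cases (65.2%), against 47.7% of all genes. Car2, which encodes carbonic anhydrase 2, carried most of the level, with 1086, 850 and 849 FPKM. Hbb-bt, an adult beta globin gene, stood at 35.6, 35.5 and 43.8 FPKM, and the embryonic globin genes Hbb-y and Hbb-bh1 were listed at 0. Hba-a1 (3.06, 9.97 and 12.8 FPKM) and Hba-a2 (1.17, 23.2 and 19.9 FPKM) were lowest in library 1. The sequences of these alpha globin genes are nearly identical, so how their reads were divided is uncertain.

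Of 32 myeloid genes 14 (43.8%) reached 1 FPKM, near the 47.7% of all genes. Lyz2, the lysozyme gene of macrophages and granulocytes, stood at 661, 548 and 543 FPKM, Fcer1g, an Fc receptor chain gene, at 177, 231 and 185, and Prtn3, the neutrophil proteinase gene, at 133, 112 and 151 FPKM. Mpo, the myeloperoxidase gene, had 0.98, 0.73 and 1.40 FPKM, and Prtn3 exceeded it by 108 to 153 times. Elane (0, 0.53 and 0 FPKM) was near 0 and Ctsg, Lcn2 and Ltf were listed at 0. Mpo and Elane were named after their values were seen. The sums of the myeloid list were 1065, 969 and 959 FPKM.

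Lymphoid genes were mostly under 1 FPKM, with 11 of 35 (31.4%) reaching it, against 47.7% of all genes. Of the 35, 11 were listed at 0, as were 4427 of all 22322 genes. Nkg7, a granule gene of cytotoxic lymphocytes, nevertheless stood at 329, 345 and 398 FPKM, and the B cell receptor chain gene Cd79b at 70.2, 48.5 and 55.4 FPKM. Its partner Cd79a, named after its values were seen, had 1 count in each library. Ccl5, a T and NK cell chemokine gene, had 0, 24.9 and 1.99 FPKM, so library 2 set its mean. Of the mast cell, basophil and eosinophil genes only Cpa3 (17.7, 23.5 and 40.8 FPKM) and Fcer1a (1.83, 1.84 and 0 FPKM) reached a mean of 1 FPKM, while Epx and 5 others were at 0.

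Genes of endothelial, stromal and bone cells, which surround stem cells in the marrow, had medians of 2.37 FPKM (endothelial) and 0.02 FPKM (stromal and bone). Of 24 endothelial genes 14 (58.3%) reached 1 FPKM, against 47.7% of all genes. The endothelial genes were led by Egfl7 (37.5, 43.9 and 61.1 FPKM), Emcn (47.6, 49.1 and 34.0 FPKM), Icam2 (mean 31.8 FPKM) and Esam (23.3). Emcn and Esam are on the list of stem cell markers as well. Plvap, Flt4, Flt1 and Stab2, which mark vessels, were each at or under a mean of 0.13 FPKM. The list summed to 180, 223 and 227 FPKM in libraries 1, 2 and 3. Fabp4, a lipid carrier of capillaries and fat, had 5.67, 18.2 and 5.92 FPKM and was highest in library 2. Of 21 stromal and bone genes, Spp1 (12.6, 16.7 and 6.73 FPKM) and Sparc (0.36, 1.36 and 2.96 FPKM) alone reached a mean of 1 FPKM, and Col1a1, Col3a1, Alpl, Bglap and Adipoq were among 6 listed at 0. Dendritic and macrophage genes had 7 of 20 (35%) at 1 FPKM, and their highest member was Flt3. The complement genes C1qc (3.82, 0.65 and 5.34 FPKM) and C1qb (1.86, 0.60 and 4.16 FPKM) were also among the 7 and were lowest in library 2. The part of other cells in these values was not tested.

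Genes of proliferation were present throughout. All 50 S phase genes and all 46 genes of G2 and mitosis reached a mean of 1 FPKM, where 47.7% of all genes did. Their medians were 25.2 and 13.5 FPKM. The replication clamp gene Pcna stood at 368, 370 and 391 FPKM, Rpa3 at 312, 324 and 308 and Tyms, which encodes thymidylate synthase, at 159, 144 and 142 FPKM. Among the mitotic genes Birc5, which encodes survivin, had 148, 140 and 158 FPKM and Pttg1, the securin gene, had 175, 131 and 129 FPKM. Cdk1 (45.6, 103 and 55.7 FPKM) was highest in library 2. The summed level of the mitotic list was 1196, 1392 and 1406 FPKM, that of the S phase list 2573, 2586 and 2550 FPKM.

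D cyclins start the cell cycle with the kinases CDK4 and CDK6, and the INK4 and CIP/KIP inhibitors oppose them. Ccnd2 was the main D cyclin gene, at 193, 157 and 141 FPKM. Ccnd3 had 42.4, 49.4 and 54.1 FPKM and Ccnd1 6.80, 5.91 and 9.21 FPKM. The order of the 3 held in each library, although the ratio of Ccnd2 to Ccnd3 ranged from 2.60 to 4.56. Cdk4 (165, 144 and 127 FPKM) exceeded Cdk6 (30.6, 27.6 and 33.2 FPKM) by 3.82 to 5.41 times. Among the inhibitors Cdkn2d stood at 28.3, 35.6 and 23.3 FPKM and Cdkn2c at 10.6, 27.1 and 15.7 FPKM, whereas Cdkn2a and Cdkn2b, which are tied to senescence, were listed at 0. Cdkn1c, an imprinted inhibitor gene of stem cell quiescence, had 11.1, 9.06 and 12.6 FPKM. It exceeded Cdkn1a (mean 3.94 FPKM) and Cdkn1b (3.57) in each library. The pocket protein genes Rbl1 (mean 27.4 FPKM) and Rbl2 (20.7) were above Rb1 (5.61).

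**Figure D4:**
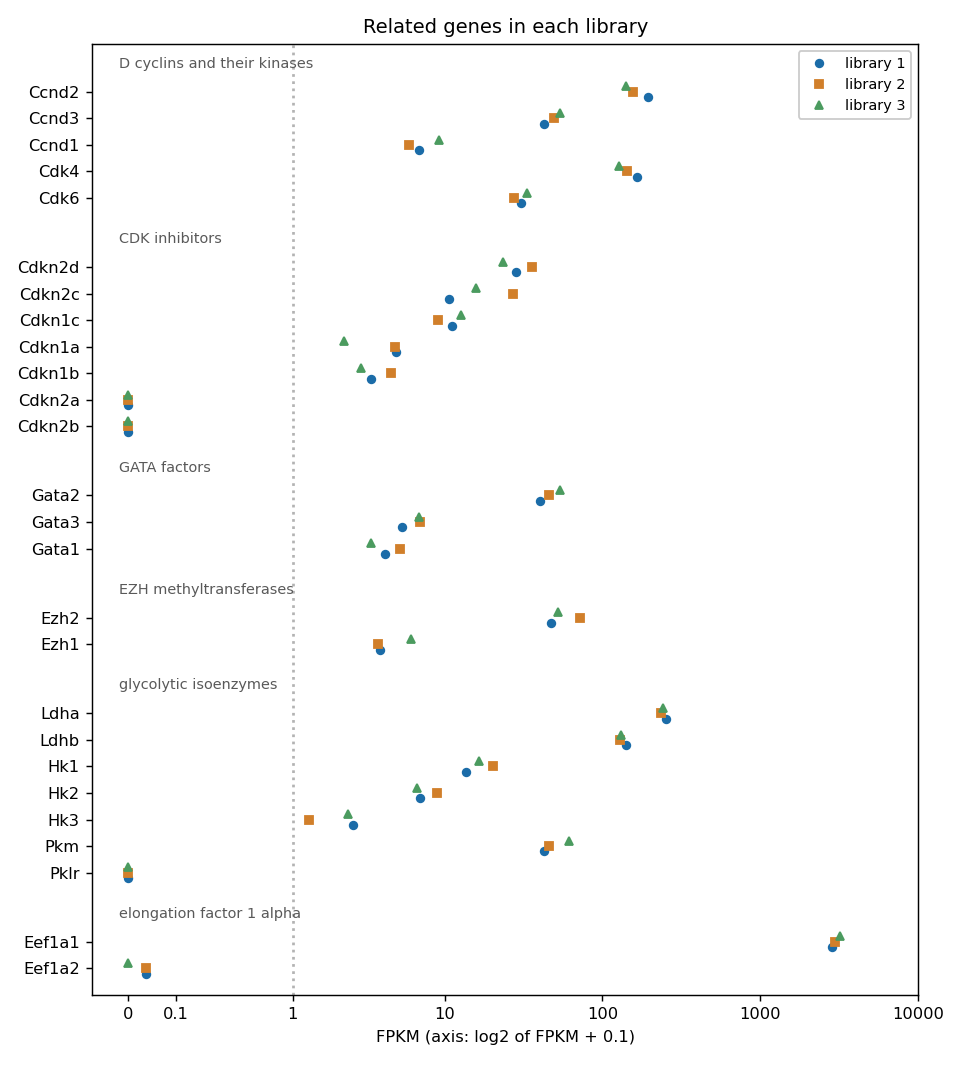
FPKM of related genes in each of the 3 wild-type libraries, plotted as log2 of FPKM + 0.1, grouped by function, with a symbol per library and a dotted line at 1 FPKM. Ccnd2, Gata2, Ezh2, Ldha and Eef1a1 lead their groups in every library, and Cdkn2a, Cdkn2b and Pklr lie at 0.

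Regulators of quiescence were lower, with 22 of 28 at 1 FPKM and a median of 3.68 FPKM. Txnip, a brake on glucose uptake, led with 149, 188 and 227 FPKM, and Meis1 and Id2 (mean 28.9 FPKM) were further members near the top. Foxo3 (7.01, 8.82 and 9.80 FPKM) was the main FoxO gene and exceeded Foxo1 by 3.21 to 4.43 times. Of all genes 47.7% reached 1 FPKM, and of the 24 immediate-early genes, which tissue handling can induce, 14 (58.3%) did. Their highest members were Myc, Ier3 (20.9, 34.7 and 27.1 FPKM), Dusp2 (mean 22.7 FPKM) and Dusp1 (18.4). Fos, named after its values were seen, had a mean of 0.99 FPKM, and Atf3, Egr2, Egr3 and Fosl1 were at or under 0.05 FPKM.

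Chromatin regulators were expressed at moderate levels, with 30 of 32 DNA methylation and Polycomb genes at 1 FPKM or more and a median of 7.51 FPKM. Eed, the scaffold subunit of Polycomb complex PRC2, stood at 99.3, 114 and 100 FPKM. The catalytic gene Ezh2 (47.6, 71.8 and 52.6 FPKM) exceeded Ezh1 by 8.71 to 19.2 times. The methyltransferase genes Dnmt1 (13.9, 19.7 and 19.2 FPKM), Dnmt3a (10.9, 13.4 and 16.5 FPKM) and Dnmt3b (11.0, 11.1 and 13.3 FPKM) lay close together, and Dnmt3l was listed at 0. Tet1 (mean 12.2 FPKM) was above Tet3 (4.52) and Tet2 (3.07).

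Antigen presentation and interferon genes formed a further abundant group. Of 22 MHC class I pathway genes 20 reached 1 FPKM, with a median of 80.5 FPKM. After B2m came H2-K1 (1078, 1232 and 1254 FPKM), H2-D1 (245, 342 and 345 FPKM) and Psmb8, an immunoproteasome gene (270, 244 and 308 FPKM). B2m exceeded H2-K1 by 7.44 to 9.41 times. The transporter gene Tap2 (1.82, 5.09 and 4.30 FPKM) was among the lowest. MHC class II genes, typical of antigen-presenting cells, reached 1 FPKM in 10 of 12 cases. H2-DMa had 173, 135 and 194 FPKM, Cd74, the invariant chain gene, 108, 103 and 145, and H2-Aa 63.4, 84.0 and 108 FPKM, while Ciita, their transactivator gene, had 0.79, 0.03 and 0.55 FPKM. Of those 10 genes 8 were highest in library 3, as were 37.5% of all genes at 1 FPKM or more.

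Of 44 interferon-induced genes 39 reached 1 FPKM, and Ifitm1, Ifitm2 (2460, 2594 and 2518 FPKM) and Ifitm3 (2157, 2443 and 2354 FPKM) made up most of the summed level. Ifi27 (123, 158 and 117 FPKM) and Xaf1 (65.3, 108 and 79.9 FPKM) came next, and both were highest in library 2. The median of the 44 was 15 FPKM. The 5 members under 1 FPKM were the antiviral genes Mx1, Mx2 and Ifit3b and the chemokine genes Cxcl9 and Cxcl11: Mx1 had a mean of 0.71 FPKM, Mx2 0.56, Ifit3b 0.51, Cxcl9 0.32 and Cxcl11 0.03. Ifit3b was above 0 in library 2 alone.

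Among the genes of energy metabolism, 25 of 32 entries on the glycolysis list reached 1 FPKM, with a median of 9.08 FPKM. They were led by Gapdh (389, 479 and 510 FPKM), Ldha (254, 235 and 240 FPKM) and Pgk1 (158, 157 and 168 FPKM), and the ratio of Ldha to Ldhb stayed between 1.80 and 1.84. Among isoenzymes Hk1 (13.5, 20.2 and 16.4 FPKM) exceeded Hk2 by 1.96 to 2.47 times and Hk3 had a mean of 2.07 FPKM, while Hkdc1 was at 0. Pkm, the pyruvate kinase gene of most tissues, had 42.9, 46.2 and 61.3 FPKM and Pklr, its liver and red cell relative, was listed at 0. The nuclear genes of complex I had a median of 412 FPKM, led by Ndufa4 (mean 1812 FPKM) and Ndufb8 (1283). Those of complex III had 463 FPKM, of complex IV 447, of succinate dehydrogenase 168 and of ATP synthase 618 FPKM. Cytochrome oxidase isoforms of most tissues stood far above those of muscle or lung. Cox4i1 had a mean of 725 FPKM against 3.42 for Cox4i2, Cox7a2 705 against 5.45 for Cox7a1, and Cox6a2 and Cox8b were at 0. Of the other tissue isoforms Cox8c was at 0, whereas Cox6b2 had a mean of 82.55 FPKM. Cox6b1 exceeded Cox6b2 by 11.1 to 17.9 times. All 24 ferritin and antioxidant genes reached 1 FPKM, led by Ftl1, Fth1 (1945, 1601 and 1775 FPKM), Gpx1 (mean 1694 FPKM) and Prdx1 (1111).

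In the machinery of protein synthesis, 83 of 85 cytoplasmic ribosomal protein genes reached 1 FPKM, with a median of 1301 FPKM. Some come as pairs. Rps27 exceeded Rps27l by 2.12 to 2.49 times, Rpl36a exceeded Rpl36al (means of 1360 and 778 FPKM), and Rpl22l1 (617, 672 and 663 FPKM) exceeded Rpl22 (443, 453 and 469 FPKM). Rpl3 had a mean of 1048 FPKM and its muscle paralogue Rpl3l was at 0. Eef1a1 stood at 2834, 2981 and 3183 FPKM and Eef1a2, its neuronal and muscle paralogue, at a mean of 0.02 FPKM. All 79 mitochondrial ribosomal protein genes reached 1 FPKM, with a median of 60.4 FPKM and Mrpl42 at the top (mean 1311 FPKM). Proteasome subunits had a median of 99.1 FPKM, led by Psmb2 (940) and Psmb6 (922). The 20 hnRNP genes of RNA processing had a median of 84.4 FPKM, and the SR splicing factor genes 92.3 FPKM.

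Large gene families differed in the share of members that reached 1 FPKM, which was 47.7% over all genes. Of the 399 zinc finger genes named Zfp, 312 (78.2%) reached 1 FPKM, led by Zfp706 (424, 354 and 325 FPKM) and Zfp36l2 (304, 342 and 335 FPKM), a regulator of mRNA decay. Of 337 solute carrier genes 148 (43.9%) did, led by the mitochondrial nucleotide exchanger Slc25a5 (mean 758 FPKM). Of 59 Rab genes 45 did, with Rab38, a gene of lysosome-related organelles, second at 170, 174 and 155 FPKM. Of 11 caspase genes 9 did, led by the inflammatory caspase gene Casp1 (84.8, 55.8 and 71.9 FPKM). Only 7 of 33 interleukin genes and 11 of 39 chemokine ligand genes reached 1 FPKM. Il18 (110, 84.0 and 70.8 FPKM), Il15 (53.9, 49.0 and 80.2 FPKM) and Il4 (23.7, 27.5 and 35.2 FPKM) led the former, and Ccl4 (72.1, 61.6 and 105 FPKM) and Ccl19 (56.6, 42.2 and 35.6 FPKM) the latter. In the collagen family 3 of 44 genes reached 1 FPKM, all under 5 FPKM and led by Col4a1, and 2 of 49 keratin genes did, Krt18 and Krt10. Of 1115 odorant receptor genes 28 did and of 352 vomeronasal receptor genes 1 did. Olfr1385 stood at 26.1, 24.5 and 35.9 FPKM, and Vmn2r53 at 6.34, 6.93 and 9.32 FPKM. Their counts are not whole numbers, as arises where reads are divided between features, and their levels are uncertain. The same holds for H2ac24 (927, 1060 and 1190 FPKM), the highest of the replication-dependent histone genes.

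The spread between the 3 libraries, each from a separate mouse, fell with level. Differences between mice, sorts and amplifications cannot be told apart in it. The median coefficient of variation was 29.4% among genes from 1 to 10 FPKM, 15.9% from 10 to 100, 9.04% from 100 to 1000 and 6.08% at 1000 FPKM and above. Counting alone would give 7.25%, 3.32%, 1.58% and 0.712% at the median count of each band. At 10 FPKM or more the median was 14.1%, and 58 of 5413 genes exceeded 50%. The markers lay between 3.38% for Mecom and 22.8% for Procr.

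The 10 most variable named genes at 10 FPKM or more included 3 of the Xlr family of X-linked lymphocyte-regulated genes. Xlr stood at 24.3, 0.38 and 9.83 FPKM, Xlr3b at 13, 19.5 and 2.31 and Xlr4b at 62.9, 14.8 and 29.5 FPKM. No library was the highest for all of them. Ergic1 (33.1, 12.4 and 5.49 FPKM), Hba-a2, Nipa2 (20.8, 3.15 and 9.94 FPKM) and Nmd3 (46.5, 21.0 and 10.9 FPKM) were also among the 10. Kif13b (10.6, 18.4 and 3.70 FPKM), Cd68 (18.2, 5.81 and 6.90 FPKM) and Zc3h8 (20.3, 5.05 and 10.4 FPKM) completed them. For some of these the transcript length implied by FPKM and count changed between libraries. For Kif13b it was 1815, 1486 and 3472 bases, and the coefficient of variation of 67.3% in FPKM was 36.5% in counts scaled to the library total. For Nmd3 the same pair of values was 70.2% and 45.3%. For Xlr (105% and 105%) and Cd68 (66.4% and 66.4%) the pair of values was equal as rounded. The 5 genes of smallest spread were Qdpr (113, 113 and 114 FPKM), Mccc2, Trmt13, Plaat3 and Myl6 (1329, 1328 and 1341 FPKM), all at or under 0.535%. In scaled counts Mccc2 varied by 14.1% and Myl6 by 0.616%.

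**Figure D5:**
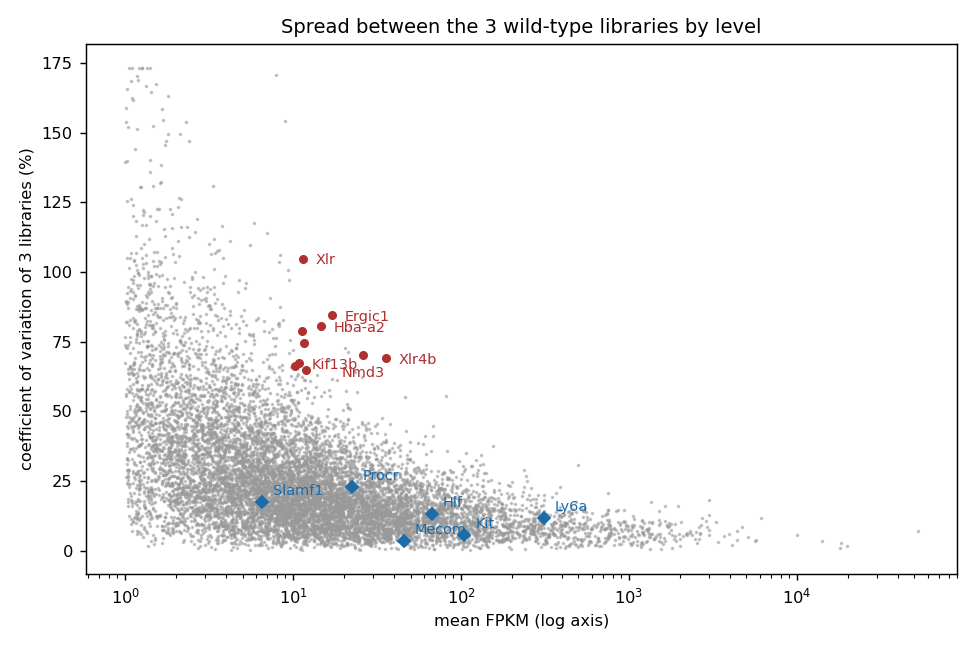
Coefficient of variation of FPKM over the 3 wild-type libraries against the mean FPKM (log axis) for genes at 1 FPKM or more, each grey point a gene, the 10 most variable named genes at 10 FPKM or more in red and the 6 markers in blue. The spread narrows with level, and the markers lie at or under 22.8%.

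Some groups moved together between libraries. Of all genes at 1 FPKM or more, 29.3% were highest in library 1, 33.3% in library 2 and 37.5% in library 3. Of the 83 ribosomal protein genes at that level 69 were highest in library 3, and the sums of the family were 123031, 120791 and 132994 FPKM. Of 22 heat shock and chaperone genes 19 were highest in library 2, led by Hspa8, which encodes the constitutive HSP70 (659, 927 and 657 FPKM), and Hsp90aa1 (760, 863 and 641 FPKM). The inducible Hspa1a (0.03, 1.35 and 0 FPKM) and Hspa1b (0.54, 2.60 and 0.50 FPKM) were low but highest there too. Of 37 nuclear complex I genes 24 and of 38 proteasome subunit genes 24 were highest in library 1. Members of a family share the scaling of their library, and these groups were picked for display after their values were seen.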

How the data were processed

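The authors deposited a table of FPKM and expected counts per gene and library, per the file headers. The deposited counts are expected counts, since 86.7% and not all of the wild-type values are whole. Per the submitters' processing notes fastp, HISAT2, StringTie and RSEM were used. For the versions, the build and the strand setting: not given in the sources used here. Genes with 1 transcript in GENCODE M21 and at least 100 counts and 5 FPKM in each library numbered 437. For 429 of them the FPKM equal the count per transcript length, scaled to the total of the table's counts, within 1%.

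Means, SDs, ranks, shares and coefficients of variation were computed in Python 3.11.15 with pandas 2.3.3. The coefficients of variation and the transcript lengths implied by FPKM and counts were tested on simulated data. No significance test was made. A gene with a mean of at least 1 FPKM was counted as present. The table is 97.4% protein-coding, so long noncoding RNAs are not analysed here. Of its rows 16 lack a symbol, and 20 symbols stand on several rows. Pairs of libraries differed beyond sampling noise (chi-square over degrees of freedom 28.3 to 33.4), so none was deposited in duplicate.

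The members, the 38 lists, 44 paralogue sets and 26 symbol families were chosen with earlier results of these data known. Genes were named by a rule: the top 25 by mean FPKM, the 6 markers, up to 6 highest and 4 lowest members of a list, paralogue sets, up to 3 members of a family, and the 10 most and 5 least variable genes. Some genes that the rule names are not reported here. Depth was 14368247 to 17904629 counts per library. Reads carry no molecular identifiers, so limits from counts cover counting error only. Alternatives left out a library, rescaled to TPM, left out mitochondrial transcripts, or changed thresholds, averages and filters.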

Additional observations from a re-analysis of the deposited data

How the results depend on the processing

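Of 49 alternative values of the 7 summary results, 43 stayed within 1.5 times (counts and coefficients of variation) or 1 SD of the libraries. With 1 of 3 libraries left out, a mean cannot move by 1 SD. Those values of the mitochondrial and ribosomal protein shares thus had to pass. The number of shared top genes was held to 1.5 times, so that 72 of 100 passed as well. The 43 is therefore a count under these rules and no measure of stability. Taken from summed FPKM in place of counts, the mitochondrial share was 18.6% (12.9% in counts) and the ribosomal protein share 16% (8.75%). Without mitochondrial transcripts the ribosomal protein share was 10.1%, 256 genes in place of 156 held 50% of the FPKM, and the median of the 6 markers was 69.4 FPKM. Rescaled to TPM that median was 71.7, a scale on which all libraries have the same sum. Leaving out a library gave 9939 to 10096 genes at 1 FPKM, 155 to 158 genes for 50% of the FPKM, a mitochondrial share of 12.8% to 13.1%, a ribosomal protein share of 8.49% to 8.93%, 97 to 98 of the top 100 genes, a marker median of 54.8 to 58.4 FPKM and a median coefficient of variation of 10.7% to 12%. The number of genes could only rise when fewer libraries had to reach 1 FPKM, and a median coefficient of variation from fewer libraries tends to be lower. The direction of both changes thus says nothing about the mouse left out. The genes at 5 FPKM numbered 6595, at 0.1 FPKM 11492 and with at least 10 counts 11063. Ranked by counts with no length correction, 72 of the 100 genes were shared. The median coefficient of variation was 19.9% from 1 FPKM on and, in scaled counts, an alternative added after the data had been seen, 13.6%. Of the 111 list medians with a library left out, 4 moved by over 1.5 times and 1 went to 0. Without library 3 the sort exclusion median went from 0.02 to 0 FPKM and that of chemokine receptors from 0.05 to 0.02. Without library 2 that of integrins went from 0.90 to 0.59, and that of mast cell genes went from 0.0433 to 0.005 without library 1 and to 0.025 without library 3. These lists lie under 1 FPKM, where depth limits every value. With 3 mice, an SD is itself imprecise, and whether preparation days differed is not given.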

Other observations

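The sex of the mice is not in the labels used here. The Y-linked genes Eif2s3y (89.3, 62.1 and 56.4 FPKM), Ddx3y (27.3, 35.1 and 28.2 FPKM), Uty (7.23, 5.51 and 11.6 FPKM) and Kdm5d (4.28, 4.24 and 5.25 FPKM) were present in each of the 3 libraries. Among genes at 1 FPKM or more, the 362 X-linked genes had a median of 10.7 FPKM and the 10249 autosomal genes one of 10.2 FPKM. The ratio of these medians in libraries 1, 2 and 3 was 1.07, 1.15 and 1.01.

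Of 26 imprinted genes measured, 12 (46.2%) reached 1 FPKM, near the 47.7% of all genes. Gnas, which encodes the stimulatory G protein alpha subunit, led with 285, 316 and 370 FPKM, followed by Phlda2 (50.2, 46.9 and 52.2 FPKM), Sgce (mean 27.1 FPKM), Impact (23.3) and Grb10 (21.6), while Dcn and Ddc were listed at 0. Of 19 genes of the Bcl2 family 10 (52.6%) reached 1 FPKM, also near the share of all genes. The survival gene Mcl1 led with 32.0, 40.6 and 41.1 FPKM, followed by the effector gene Bax (15.7, 23.8 and 19 FPKM), Bid (mean 15.2 FPKM) and Bcl2 (14.4). Hrk had 1 count in library 1 and none in the others, and Bik, Bcl2l10 and Bcl2a1a were listed at 0.

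Genes of the cytoskeleton were led by Tmsb4x, Pfn1 (852, 733 and 762 FPKM), which encodes profilin, and Actb (723, 764 and 797 FPKM). Actb exceeded Actg1 by 1.42 to 1.5 times, and the muscle actin genes Acta1, Actc1 and Actg2 were listed at 0. Tmsb4x exceeded Tmsb10 by 7.63 to 8.68 times. The transcript lengths implied by FPKM and counts stayed within 2% between libraries for 56.8% of the 6529 genes with at least 100 counts and 5 FPKM in each library, and differed by over 1.5 times for 149 of them (2.28%).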
